A study of Mus musculus with 12 samples.

Results

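The genes described here are 42 genes of DNA replication and S phase, taken by symbol from the table of counts per gene. All 42 were found among the 32285 genes of that table, and all 42 were among the 14113 genes with enough counts to be tested. They were followed in 12 poly(A)-selected RNA libraries of bone marrow-derived macrophages, cells grown in culture from bone marrow precursors of wild-type (WT) mice. One of 3 acids was given at a final 5 mM from a stock in RPMI medium for 16 h, namely itaconic acid, called IA below, malonic acid, called MA, or methylsuccinic acid, called MetSA. Control cells were kept in medium alone (M). Each of these 4 groups held 3 biological replicates, and the same WT genotype and culture were common to all 4. No label says whether the replicates came from separate animals, so the p-values below measure the spread between these libraries.

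Itaconic acid and methylsuccinic acid share a carbon skeleton and differ in the double bond, which only itaconic acid carries. Malonic acid, also dicarboxylic, has a shorter chain and is a textbook inhibitor of succinate dehydrogenase. All 3 were compared at the same dose and time. Libraries are named below by group and replicate number (IA 1). CPM is the usual normalised read count, a gene's count scaled by the size of its library, and "lower" or "higher" is used of a gene that was called, that is, with an adjusted p under 0.05 in edgeR's quasi-likelihood test across all tested genes. Fold changes are log2 values from the same test with their standard error (SE).

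Chromosomal DNA is copied once per cell cycle. In G1 the origin recognition complex, Cdc6 and Cdt1 load the Mcm2 to Mcm7 ring onto DNA, a step called licensing, and geminin (Gmnn) keeps Cdt1 from loading it again. In S phase the kinase Cdc7 with its activator Dbf4, together with cyclin E kinase, brings in Cdc45 and the GINS complex, and the ring then works as the replicative helicase. DNA polymerase alpha with primase starts each strand, and the polymerases delta and epsilon extend it on the sliding clamp Pcna, which replication factor C loads. Ribonucleotide reductase and its partner enzymes supply the deoxynucleotides, and chromatin assembly factor 1 and Uhrf1 restore nucleosomes and DNA methylation on the new strands. Many of these genes are known targets of E2F transcription factors, and cultured macrophages divide as long as the growth factor Csf1 is present.

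The promoters of 5 of the genes are shown because they hold words of the E2F binding site and belong to genes that behaved differently. Mcm5 and Cdc6 were lower with all 3 acids, Mcm6 and Rfc3 were not called with IA or with MA, and E2f2 was higher with IA and with MA. These 5 were picked after the values had been seen. Each sequence is the RefSeq promoter on GRCm38.p6, from 250 bases before to 50 bases after the annotated start, on the strand of the gene from 5′ to 3′, with the matched words in capitals.
Mcm5 (chr8:75109259-75109558, plus strand): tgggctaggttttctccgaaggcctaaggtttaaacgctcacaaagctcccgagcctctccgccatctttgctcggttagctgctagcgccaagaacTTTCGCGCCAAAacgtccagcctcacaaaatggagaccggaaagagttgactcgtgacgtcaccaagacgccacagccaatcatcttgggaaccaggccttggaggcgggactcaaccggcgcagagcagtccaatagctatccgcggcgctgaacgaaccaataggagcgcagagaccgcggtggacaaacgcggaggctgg
Cdc6 (chr11:98907901-98908200, plus strand): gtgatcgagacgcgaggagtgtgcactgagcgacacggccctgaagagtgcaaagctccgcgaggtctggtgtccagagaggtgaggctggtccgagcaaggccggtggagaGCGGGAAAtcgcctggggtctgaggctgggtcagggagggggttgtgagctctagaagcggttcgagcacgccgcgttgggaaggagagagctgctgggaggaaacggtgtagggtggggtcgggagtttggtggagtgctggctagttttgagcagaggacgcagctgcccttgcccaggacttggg
Mcm6 (chr1:128359656-128359955, minus strand): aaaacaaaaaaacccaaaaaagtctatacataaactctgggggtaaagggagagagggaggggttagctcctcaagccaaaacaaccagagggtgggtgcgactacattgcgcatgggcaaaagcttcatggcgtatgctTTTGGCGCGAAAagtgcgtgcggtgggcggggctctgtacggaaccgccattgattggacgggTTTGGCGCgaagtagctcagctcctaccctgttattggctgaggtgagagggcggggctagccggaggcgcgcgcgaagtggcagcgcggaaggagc
Rfc3 (chr5:151651159-151651458, minus strand): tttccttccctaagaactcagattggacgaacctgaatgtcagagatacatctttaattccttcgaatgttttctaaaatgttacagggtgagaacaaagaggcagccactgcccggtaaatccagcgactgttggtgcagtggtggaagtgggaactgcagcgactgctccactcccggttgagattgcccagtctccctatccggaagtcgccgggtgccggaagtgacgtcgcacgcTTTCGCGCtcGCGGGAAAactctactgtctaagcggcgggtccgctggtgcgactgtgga
E2f2 (chr4:136172024-136172323, plus strand): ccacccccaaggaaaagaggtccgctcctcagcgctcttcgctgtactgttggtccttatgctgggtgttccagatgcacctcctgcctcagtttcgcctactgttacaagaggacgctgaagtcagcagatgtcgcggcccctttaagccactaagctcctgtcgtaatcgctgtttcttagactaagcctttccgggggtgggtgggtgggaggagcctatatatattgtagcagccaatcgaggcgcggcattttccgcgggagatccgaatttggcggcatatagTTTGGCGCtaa

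The 4 words searched were TTTCCCGC, TTTGGCGC, TTTCGCGC and TTTGCCGC, on both strands. At least 1 of them stood in a promoter of 13 of the 33 genes of the list that have an entry in the RefSeq promoter table (39.4%), against 704 of all 27025 genes of that table (2.60%). Counted from the annotated start, with the first transcribed base as 1 and no base 0, the first bases of the 2 overlapping words of Mcm5 lie at -153 and -149. The single word of Cdc6 begins at -138 and that of E2f2 at 40. The Cdc6 window lies wholly inside the gene as annotated in GENCODE M21 (from chr11:98907801), so its start is not the outermost one. Mcm6 holds overlapping words at -110 and -106 and another at -47, and Rfc3 holds words at -10 and 1. Gins1, Gins2, Gins4, Mcm4, Gmnn, Rfc2, Prim2, Pole and Ccne2 have no entry. A match describes the letters in this window and is no measurement of E2F binding.

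Library totals ran from 46892488 to 54252486 counts. All 10 macrophage markers on the list used were tested, with summed levels of 26300 to 29000 CPM in IA, 29000 to 31100 CPM in MA, 27700 to 34300 CPM in MetSA and 25800 to 28000 CPM in M. The 8 markers of myeloid progenitors, cells that divide fast in marrow, summed to 5.54 to 6.60 CPM in IA, 4.47 to 6.43 CPM in MA, 6.01 to 9.19 CPM in MetSA and 4.52 to 6.87 CPM in M, and 3 of the 8 stayed below 1 CPM in every library. All 7 lymphocyte markers, all 5 mast cell markers and 5 of 6 erythroid markers stayed below 1 CPM, and Cd3g and Ncr1 were at 0 in all 12 libraries. Dendritic cell markers summed to 8.18 to 10.3 CPM in IA, 3.64 to 4.12 CPM in MA, 5.10 to 6.89 CPM in MetSA and 2.96 to 4.57 CPM in M, and their part in the results below was not tested. Neutrophil markers summed to 83.3 to 121 CPM in IA, 72.6 to 90.9 CPM in MA, 82.7 to 107 CPM in MetSA and 71.1 to 109 CPM in M, and stromal and endothelial markers to 15.8 to 42.6 CPM over all libraries. In a bulk library fewer cells in S phase and less RNA of these genes per cell cannot be told apart.

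Most of the 42 genes were lower with each acid than in M. With IA 30 were called lower and 1 higher, against a background of 17.3% of all tested genes called lower and 17.9% called higher. With MA 29 were called lower and 1 higher, where 10.1% of all tested genes were called lower and 10.1% higher. With MetSA 24 were called lower and the other 18 were not called, where 8.53% of all tested genes were called lower and 12.6% higher. The median log2 fold change of the 42 genes was -0.50 for IA, -0.53 for MA and -0.35 for MetSA, where the median of all tested genes was -0.03, -0.02 and -0.01. The extremes were -1.27 and 0.29 with IA, -1.20 and 1.04 with MA, and -0.78 and 0.13 with MetSA. The 3 comparisons share the M libraries, so their counts are set side by side and are not independent of each other.

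The M libraries were not alike. Averaged over the 42 genes, the log2 difference from the mean of M was 0.11 in M 1, -0.03 in M 2 and -0.09 in M 3, while it ran from -0.59 to -0.46 in the IA libraries, from -0.61 to -0.38 in the MA libraries and from -0.48 to -0.27 in the MetSA libraries. Every acid library thus lay below every M library on this average. In summed CPM of the 42 genes the IA libraries held 1210, 1270 and 1180, the MA libraries 1240, 1070 and 1180, the MetSA libraries 1320, 1180 and 1300, and the M libraries 1760, 1580 and 1490. Of the 42 genes 33 to 36 lay below the lowest M library in an IA library, 32 to 39 in an MA library and 28 to 36 in a MetSA library. This count was not made over all tested genes, so it has no background. The count of genes called lower with MetSA fell to 16 without M 1, the highest of the M libraries, and lay between 27 and 31 for IA and between 23 and 31 for MA when any 1 library was left out.

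The group mean was highest in M for 38 of the 42 genes and lowest in IA for 24 and in MA for 16. The order M, MetSA, MA, IA from high to low was the most frequent, with 19 genes, and M, MetSA, IA, MA came next with 10. Neither the extremes nor the orders were counted over all tested genes, so these counts have no background either. No called gene changed sign under any of the scalings tried, but the balance of calls over all genes moved. Of all calls for IA against M 50.9% were higher with the scaling used, 34.8% with upper-quartile factors and 21.6% with library totals alone. For MetSA against M the share was 59.7%, 42.2% and 29.5% in the same order. Another scaling shifts every gene of a comparison alike, so the median of the 42 genes less that of all genes, -0.47 for IA, -0.51 for MA and -0.33 for MetSA, does not depend on that choice by construction.

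**Figure D1:**
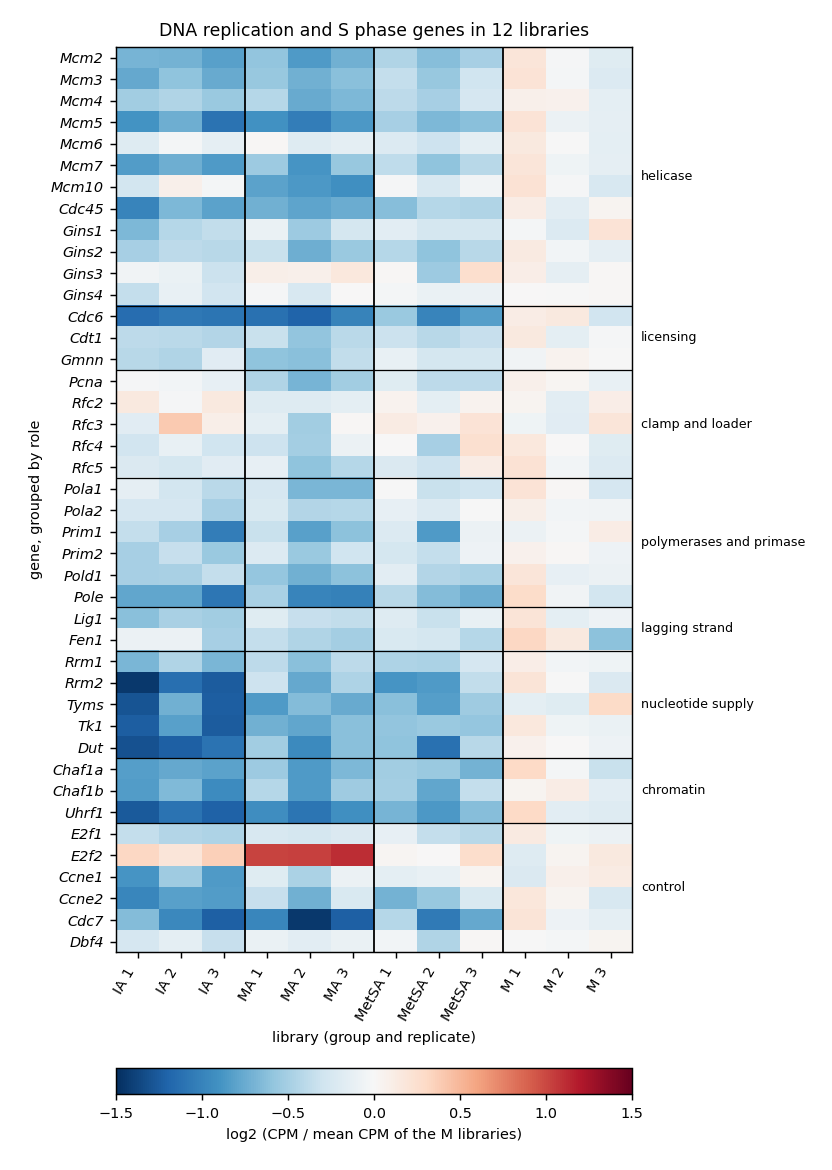
Log2 ratio of CPM to the mean CPM of the M libraries (colour) for the 42 genes (rows, by role) in the 12 libraries (columns, 3 per group). Most rows are blue in the 9 acid libraries, the nucleotide supply genes are darkest with IA, and E2f2 is red with MA.

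**Figure D2:**
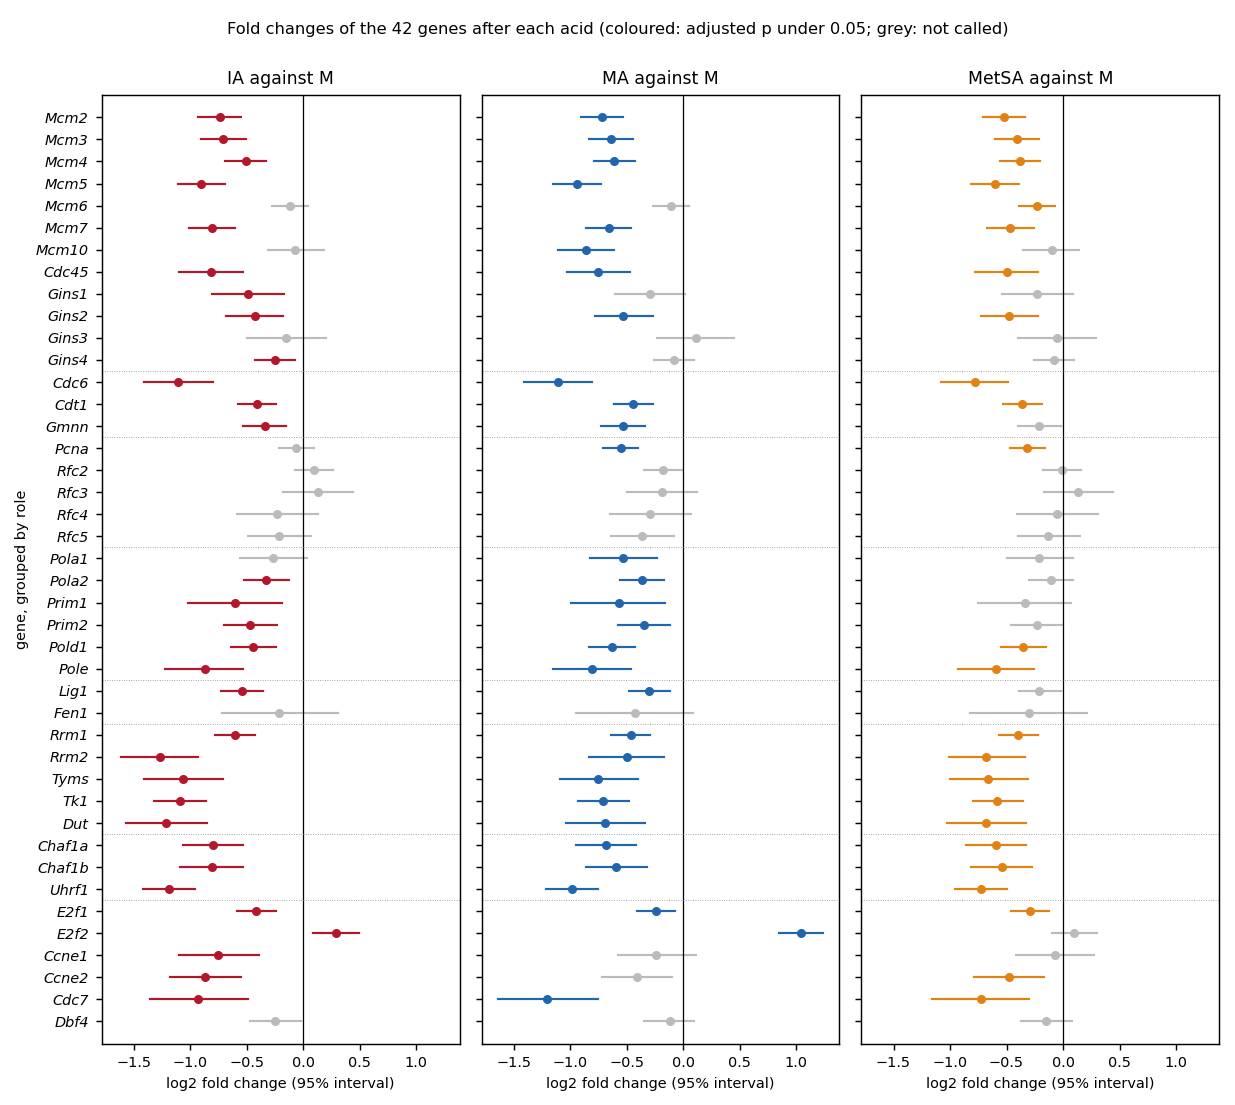
Log2 fold change with its 95% interval (horizontal axis) for each of the 42 genes (rows) after IA, MA and MetSA against M. Coloured points were called (31, 30 and 24 genes) and grey points were not.

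Per kilobase of exon, which allows levels of different genes to be compared, Pcna was the most abundant of the 42 with 143 CPM per kb in M, followed by Mcm6 at 37.0 CPM per kb. Mcm5 and Mcm3 stood at 21.0 CPM per kb each, Mcm4 at 17.7, Mcm7 at 13.9 and Mcm2 at 7.32 CPM per kb, so the subunits of a ring that holds each once differed in transcript level. The lowest values in M were those of Cdc7 at 1.06 and Fen1 at 0.834 CPM per kb. Of the exon bases of Fen1 84.2% overlap other genes, so its level is uncertain. The exon lengths join all annotated isoforms of GENCODE M21 on GRCm38, retained introns included, and set these levels too low for genes with long isoforms that are not expressed.

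The helicase group holds the ring subunits Mcm2 to Mcm7, the assembly factor Mcm10, Cdc45 and the 4 GINS subunits. Of these 12 genes 9 were lower with IA (median log2 fold change -0.50), 8 with MA (-0.62) and 8 with MetSA (-0.39). Mcm5 (ENSMUSG00000005410, chr8:75109569-75128439, plus strand, GRCm38) stood at 45.2, 50.6 and 38.8 CPM in IA, 44.8, 40.8 and 46.1 CPM in MA, 59.4, 52.4 and 54.5 CPM in MetSA, and 96.4, 78.9 and 76.5 CPM in M. All 9 acid libraries lay below all 3 M libraries. The log2 fold change was -0.90 (SE 0.10, adjusted p = 1.72e-06) for IA, -0.94 (SE 0.10, adjusted p = 2.08e-06) for MA and -0.60 (SE 0.10, adjusted p = 0.000237) for MetSA. Mcm2, another ring subunit, stood at 31.3, 31.1 and 28.9 CPM in IA, 33.7, 28.3 and 30.9 CPM in MA, 37.2, 32.8 and 36.1 CPM in MetSA, and 57.7, 50.2 and 44.8 CPM in M. It was lower with each acid, again without overlap, by log2 fold changes of -0.74 (SE 0.09), -0.72 (SE 0.09) and -0.52 (SE 0.09) for IA, MA and MetSA. Mcm7 stood at 34.3, 36.9 and 33.9 CPM in IA, 42, 33.2 and 41.2 CPM in MA, 47.1, 40.3 and 45.9 CPM in MetSA, and 69.5, 58.8 and 55.7 CPM in M. Its groups did not overlap with M either, and its log2 fold changes were -0.81, -0.66 and -0.47 for IA, MA and MetSA. Of its exon bases 12.6% overlap other genes, so its counts are uncertain to that extent.

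Mcm3 (-0.71, -0.64 and -0.41 on the log2 scale for IA, MA and MetSA) and Mcm4 (-0.51, -0.61 and -0.38) were also lower with each acid. Mcm6, the ring subunit with the highest level, did not share the size of that change. Its mean was 158 ± 8.81 CPM in IA, 160 ± 12.1 CPM in MA, 147 ± 7.92 CPM in MetSA and 172 ± 17.8 CPM in M (SD, n = 3 each). The log2 differences for IA (-0.12, 95% interval -0.28 to 0.04) and MA (-0.11, -0.27 to 0.05) were not called, and the lower limits of these intervals lie above the fold changes of the other 5 ring subunits for the same acid. With MetSA Mcm6 was called lower (-0.23, SE 0.08, adjusted p = 0.0399), a call lost without IA 3, MA 3, MetSA 1, MetSA 2, M 1 or M 2 (adjusted p from 0.0502 to 0.236).

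Mcm10, which joins the ring to polymerase alpha, was lower only with MA among the comparisons with M. It stood at 13.1, 16.8 and 15.6 CPM in IA, 9.11, 8.72 and 8.43 CPM in MA, 15.7, 13.5 and 15.3 CPM in MetSA, and 18.5, 15.7 and 13.5 CPM in M. The MA libraries lay below all others, and the IA and MetSA libraries overlapped with M. The log2 fold change was -0.86 (SE 0.12, adjusted p = 2.25e-05) for MA against M. Between the acids Mcm10 was higher in IA than in MA by 0.79 (SE 0.12, adjusted p = 2.80e-05) and lower in MA than in MetSA by -0.76 (SE 0.12, adjusted p = 5.81e-05), and these 3 calls held when any 1 library was left out.

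Cdc45 was lower with all 3 acids (-0.82, -0.75 and -0.50 for IA, MA and MetSA), and its MetSA call was lost without MetSA 1 or M 1 (adjusted p = 0.0533 and 0.0548). The GINS subunits moved less evenly. Gins1 was lower with IA (-0.49, SE 0.15, adjusted p = 0.0171), a call lost without IA 1 or M 3 (adjusted p = 0.0834 and 0.0975). Gins2 was lower with each acid (-0.43, -0.53 and -0.48), but 67.3% of its exon bases overlap Gse1, and without M 1 its IA and MetSA calls were lost (adjusted p = 0.0515 and 0.0504). Gins4 was lower with IA by -0.25 (SE 0.09, adjusted p = 0.0297), a call lost without IA 1, IA 3 or any of the M libraries (adjusted p from 0.0591 to 0.149). Gins3 was called in none of the 6 comparisons, with 5.54, 5.39 and 4.6 CPM in IA, 6.11, 6.06 and 6.45 CPM in MA, 5.83, 3.95 and 6.87 CPM in MetSA, and 6.18, 5.26 and 5.83 CPM in M. All 4 of its groups overlapped except that MA lay above IA, a log2 difference of -0.26 for IA against MA (95% interval -0.61 to 0.09).

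All 3 licensing genes were lower with IA and with MA, and Cdc6 and Cdt1 also with MetSA. Cdc6 (ENSMUSG00000017499, chr11:98907801-98923940, plus strand), the ATPase that brings the ring to origins, stood at 4.58, 4.80 and 4.73 CPM in IA, 4.66, 4.41 and 5.04 CPM in MA, 6.88, 5.10 and 5.68 CPM in MetSA, and 10.9, 11.2 and 8.27 CPM in M. The lowest M library lay above every acid library. The log2 fold change was -1.11 for IA (SE 0.14, adjusted p = 5.68e-06), -1.11 for MA (SE 0.14, adjusted p = 1.01e-05) and -0.78 for MetSA (SE 0.14, adjusted p = 0.000412). Cdt1, its partner in loading, was lower by -0.41, -0.44 and -0.36 with IA, MA and MetSA (SE 0.08 each). Gmnn, the inhibitor of Cdt1, stood at 18.7, 18.3 and 22.2 CPM in IA, 16.4, 16.2 and 19.3 CPM in MA, 23.1, 20.9 and 20.9 CPM in MetSA, and 24.1, 26.0 and 24.8 CPM in M. The M libraries lay above all others. Gmnn was lower with IA (-0.34, SE 0.09, adjusted p = 0.00720) and with MA (-0.53, SE 0.09, adjusted p = 0.000285), and was not called with MetSA (-0.21, 95% interval -0.40 to -0.02, adjusted p = 0.118).

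Few of the 5 genes of the clamp and its loader were called against M. Pcna was the only one called with MA and with MetSA, and with IA the 5 log2 fold changes lay between -0.23 and 0.13, each with a 95% interval that includes 0. Pcna (ENSMUSG00000027342, chr2:132249162-132253314, minus strand) stood at 340, 334 and 314 CPM in IA, 251, 212 and 238 CPM in MA, 303, 262 and 261 CPM in MetSA, and 361, 349 and 318 CPM in M. The IA and M libraries overlapped, while the MA and MetSA libraries all lay below M. The log2 fold change was -0.55 for MA (SE 0.07, adjusted p = 1.43e-05) and -0.32 for MetSA (SE 0.07, adjusted p = 0.00408), and -0.06 for IA (95% interval -0.21 to 0.10, adjusted p = 0.597). Of the 100-base stretches of Pcna transcripts 10.1% also occur in the pseudogene Pcna-ps2, so its level is uncertain to that extent.

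Replication factor C is the loader that opens the clamp. Rfc2 stood at 38.6, 34.4 and 38.7 CPM in IA, 30.5, 30.4 and 31.5 CPM in MA, 36.1, 31.5 and 36.3 CPM in MetSA, and 35.8, 31.4 and 37.4 CPM in M. Each acid overlapped with M, and IA lay above MA. The difference of IA against MA was called (0.28, SE 0.08, adjusted p = 0.0119), but not without IA 1 (adjusted p = 0.0508), with upper-quartile factors or with library totals alone (log2 fold changes of 0.20 and 0.12), and 15.1% of its exon bases overlap Lat2. Rfc3, Rfc4 and Rfc5 were called in none of the 6 comparisons. Rfc3 stood at 10.4, 15.3 and 12.4 CPM in IA, 10.6, 8.17 and 11.8 CPM in MA, 12.7, 12.2 and 13.5 CPM in MetSA, and 11.2, 10.4 and 13.3 CPM in M. Rfc4 stood at 4.90, 5.51 and 4.85 CPM in IA, 4.81, 4.18 and 5.62 CPM in MA, 5.97, 4.23 and 7.06 CPM in MetSA, and 6.67, 5.96 and 5.25 CPM in M. Both overlapped with M after every acid. Rfc5 stood at 16.9, 16.3 and 17.4 CPM in IA, 18.0, 12.9 and 14.6 CPM in MA, 16.8, 15.8 and 21.1 CPM in MetSA, and 22.7, 19.0 and 17.0 CPM in M, and it overlapped with M as well. For MA against M the lower limits of the 95% intervals of Rfc4 and Rfc5 were -0.65 and -0.64, so a change as large as the helicase median of -0.62 lies inside them. Of the exon bases of Rfc4 12.7% overlap Eif4a2, and of those of Rfc5 10.7% overlap Wsb2, so their counts are uncertain to that extent.

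The polymerase and primase genes were lower in 5 of 6 cases with IA and in 6 of 6 with MA, and in 2 of 6 with MetSA. Pole, the catalytic subunit of polymerase epsilon, stood at 12.7, 12.7 and 10.3 CPM in IA, 15.6, 11 and 10.8 CPM in MA, 16.3, 13.9 and 13.1 CPM in MetSA, and 26.3, 21.1 and 18.0 CPM in M. All acid libraries lay below M. The log2 fold change was -0.87 for IA (SE 0.16, adjusted p = 0.000573), -0.81 for MA (SE 0.16, adjusted p = 0.00189) and -0.59 for MetSA (SE 0.16, adjusted p = 0.0143). Pold1, the catalytic subunit of polymerase delta, stood at 23.2, 23.3 and 25.6 CPM in IA, 21.9, 19.9 and 21.4 CPM in MA, 29.2, 24.2 and 23.5 CPM in MetSA, and 37.2, 30.1 and 30.7 CPM in M. It was lower with each acid and did not overlap with M, by -0.44, -0.63 and -0.35 for IA, MA and MetSA (SE 0.10 each). Pola2, the B subunit of polymerase alpha, stood at 19.2, 19.2 and 16.1 CPM in IA, 19.4, 16.8 and 16.9 CPM in MA, 20.9, 19.8 and 22.7 CPM in MetSA, and 24.3, 22.2 and 21.9 CPM in M. It was lower with IA (-0.33, SE 0.09) and with MA (-0.36, SE 0.09), and MetSA overlapped with M (-0.11, 95% interval -0.30 to 0.09).

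The catalytic subunit Pola1 was lower with MA (-0.53, SE 0.14, adjusted p = 0.0139), and the primase subunits Prim1 and Prim2 were lower with IA (-0.60 and -0.47) and with MA (-0.57 and -0.35). Several of these calls rested on single libraries. Pola1 with MA was lost without MA 2, MA 3 or M 1 (adjusted p from 0.0615 to 0.066), Pola2 with IA without IA 3 or M 1 (0.117 and 0.0511), and Prim1 with IA without IA 3, M 2 or M 3 (0.0522 to 0.141). Prim1 with MA was lost without IA 2, MA 2, MA 3, MetSA 1 or any of the M libraries (adjusted p from 0.0528 to 0.179), and Prim2 with MA without MA 2, MA 3, M 1 or M 2 (0.052 to 0.166). With MetSA the Pold1 call was lost without MetSA 2 or M 1 (adjusted p = 0.0557 and 0.0979), and the Pole call without MetSA 2, MetSA 3 or M 1 (0.0553 to 0.0697).

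Lig1, the ligase that joins the fragments of the lagging strand, stood at 32.4, 35.8 and 34.9 CPM in IA, 44.2, 39.3 and 38.8 CPM in MA, 43.8, 39.9 and 46.5 CPM in MetSA, and 57.5, 45.2 and 47.7 CPM in M. IA and MA lay below M, and MetSA overlapped with it. Lig1 was lower with IA (-0.54, SE 0.09, adjusted p = 6.94e-05) and with MA (-0.30, SE 0.09, adjusted p = 0.0195), the MA call being lost without MA 2, MA 3 or M 1 (adjusted p from 0.0833 to 0.149). Fen1, the nuclease that trims those fragments, had the fewest counts of the 42 genes, with 68 in its lowest library. It stood at 1.90, 1.90 and 1.43 CPM in IA, 1.58, 1.48 and 1.42 CPM in MA, 1.73, 1.68 and 1.5 CPM in MetSA, and 2.5, 2.24 and 1.32 CPM in M. All groups overlapped with M, and the gene was called in no comparison. Of its exon bases 84.2% overlap other genes, so its counts are uncertain.

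All 5 nucleotide supply genes were lower with each acid, with a median log2 fold change of -1.09 for IA, -0.69 for MA and -0.66 for MetSA. The chromatin genes, the role with the next lowest median, stood at -0.81, -0.68 and -0.59, and the difference between the roles was not tested. Tk1 (ENSMUSG00000025574, chr11:117815526-117826092, minus strand), the thymidine kinase of dividing cells, stood at 10.5, 14 and 10.4 CPM in IA, 15, 14.4 and 16.0 CPM in MA, 16.4, 16.8 and 16.5 CPM in MetSA, and 27.6, 23.6 and 23.1 CPM in M. Every acid library lay below every M library, and the IA libraries lay below those of MA and MetSA. The log2 fold change was -1.09 for IA (SE 0.11, adjusted p = 1.95e-07), -0.71 for MA (SE 0.11, adjusted p = 5.94e-05) and -0.58 for MetSA (SE 0.11, adjusted p = 0.000492).

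Rrm2 (ENSMUSG00000020649, chr12:24708241-24714146, plus strand), the small subunit of ribonucleotide reductase, stood at 10.9, 13.6 and 12.5 CPM in IA, 24.0, 17.5 and 21.7 CPM in MA, 16.1, 16.6 and 23.1 CPM in MetSA, and 34.1, 29.7 and 25.6 CPM in M. The IA libraries were the lowest and the M libraries the highest, without overlap. The log2 fold change of -1.27 for IA (SE 0.16, adjusted p = 2.41e-05) was the lowest of the 42 genes. It was -0.50 for MA (SE 0.15, adjusted p = 0.0341), a call lost without IA 3, MA 2, MA 3, M 1 or M 2 (adjusted p from 0.0621 to 0.123), and -0.68 for MetSA (SE 0.15, adjusted p = 0.00633). The MA call was also lost when the replicate number was added to the model. The large subunit Rrm1 was lower by -0.60, -0.46 and -0.40 with IA, MA and MetSA (SE 0.08 each). Tyms, which makes thymidylate, was lower by -1.06, -0.75 and -0.66, and Dut, which keeps uracil out of DNA, by -1.21, -0.69 and -0.68.

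**Figure D3:**
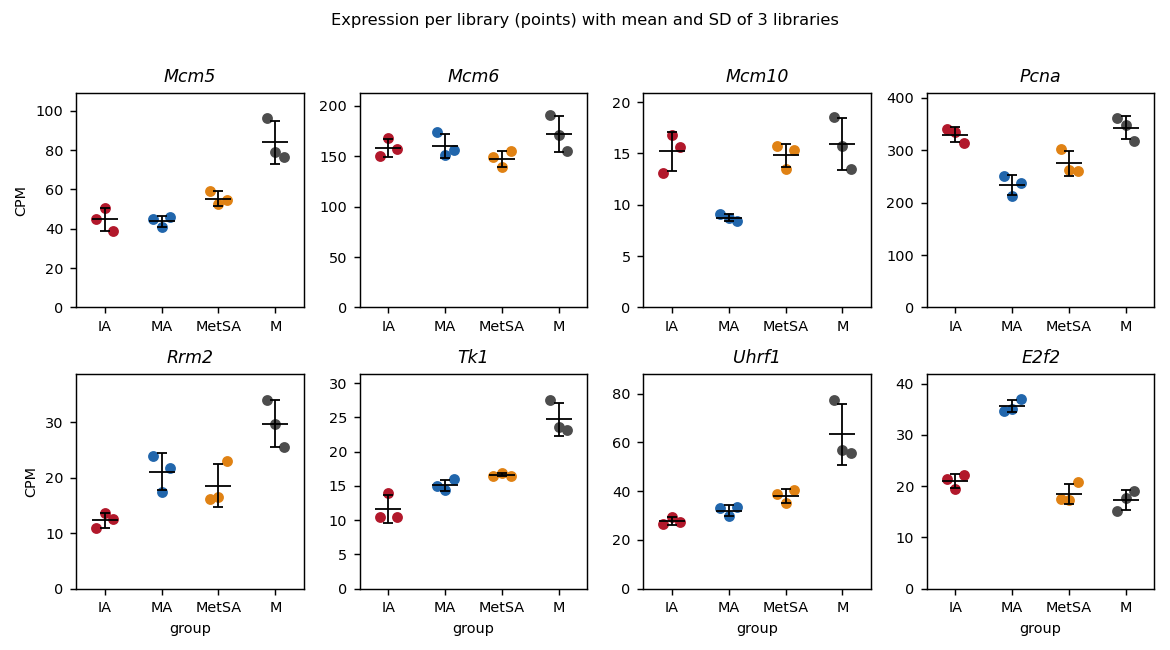
CPM (vertical axis, from 0) of 8 of the genes in each library (points), with the mean and SD of 3 libraries per group (bars) for IA, MA, MetSA and M. Mcm5, Tk1 and Uhrf1 are below M with each acid, Mcm10 only with MA and Pcna with MA and MetSA, Mcm6 differs little, and E2f2 is highest in MA.

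The 3 chromatin genes were lower with each acid. Uhrf1 (ENSMUSG00000001228, chr17:56303321-56323486, plus strand), which brings the maintenance methyltransferase to new DNA, stood at 26.5, 29.4 and 27.2 CPM in IA, 33.1, 29.6 and 33.3 CPM in MA, 38.9, 34.9 and 40.5 CPM in MetSA, and 77.5, 56.7 and 55.4 CPM in M. M lay above every acid library, and M 1 was far above M 2 and M 3. The log2 fold change was -1.19 for IA (SE 0.11, adjusted p = 3.03e-07), -0.98 for MA (SE 0.11, adjusted p = 4.59e-06) and -0.73 for MetSA (SE 0.11, adjusted p = 9.88e-05), and all 3 calls held without M 1. The chromatin assembly factor subunits Chaf1a (-0.80, -0.68 and -0.59 for IA, MA and MetSA) and Chaf1b (-0.81, -0.59 and -0.54) were lower by less. Chaf1a shares 52.5% of its exon bases with Ubxn6, so its counts are uncertain.

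The control genes split. E2f2 (ENSMUSG00000018983, chr4:136172394-136196057, plus strand), an activating E2F factor, was the only one of the 42 genes called higher against M. It stood at 21.4, 19.5 and 22.1 CPM in IA, 34.7, 35 and 37.0 CPM in MA, 17.5, 17.2 and 20.7 CPM in MetSA, and 15.1, 17.7 and 19.0 CPM in M. The MA libraries lay well above all others, the IA libraries just above M, and MetSA overlapped with M. The log2 fold change was 1.04 for MA (SE 0.09, adjusted p = 9.04e-08), a call kept under every alternative tried. For IA it was 0.29 (SE 0.10, adjusted p = 0.0248), a call lost without IA 1, IA 3 or M 1 (adjusted p = 0.0687, 0.061 and 0.137) and also with upper-quartile factors or library totals.

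E2f1, the related factor, stood at 32.5, 30.7 and 30.1 CPM in IA, 35.1, 34.7 and 35.8 CPM in MA, 38, 32.4 and 31.1 CPM in MetSA, and 45.7, 39.8 and 38.9 CPM in M. It lay below M with each acid, by -0.42 for IA (SE 0.08, adjusted p = 0.000505), -0.24 for MA (SE 0.08, adjusted p = 0.0454) and -0.29 for MetSA (SE 0.08, adjusted p = 0.0135). The MA call was lost without IA 1, IA 2, IA 3, MA 1, MA 2, MA 3, MetSA 2, M 1 or M 2 (adjusted p from 0.0535 to 0.236) and with DESeq2's size factors (RLE), and the MetSA call without MetSA 2, MetSA 3 or M 1 (0.0561 to 0.0984).

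The cyclin E genes, whose products activate Cdk2 at the start of S phase, were both lower with IA. Ccne1 stood at 2.36, 3.01 and 2.43 CPM in IA, 3.84, 3.15 and 4.12 CPM in MA, 3.95, 4.03 and 4.49 CPM in MetSA, and 3.77, 4.59 and 4.74 CPM in M. The IA libraries lay below all others, and MA and MetSA overlapped with M. The log2 fold change was -0.75 for IA (SE 0.17, adjusted p = 0.00185). Ccne2 stood at 5.88, 6.60 and 6.50 CPM in IA, 9.13, 7.03 and 9.93 CPM in MA, 7.10, 7.83 and 9.89 CPM in MetSA, and 13.0, 11.9 and 9.80 CPM in M. Only the IA libraries were clear of M, and the log2 fold change was -0.87 for IA (SE 0.15, adjusted p = 0.000136) and -0.48 for MetSA (SE 0.15, adjusted p = 0.0245). The MetSA call was lost without MetSA 1, MetSA 2, M 1 or M 2 (adjusted p from 0.074 to 0.126), and 17.4% of the exon bases of Ccne2 overlap Ints8.

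The origin-firing kinase Cdc7 was lower with IA (-0.93), MA (-1.20) and MetSA (-0.73), the MetSA call being lost without MetSA 2 or M 1 (adjusted p = 0.0827 and 0.0834). Its activator Dbf4 was called in no comparison, with 13.7, 14.7 and 12.8 CPM in IA, 15.2, 14.6 and 15.2 CPM in MA, 15.8, 11.9 and 16.5 CPM in MetSA, and 16.2, 16.0 and 16.8 CPM in M. The IA and MA libraries of Dbf4 all lay below M, but the log2 differences of -0.25 for IA (95% interval -0.47 to -0.02, adjusted p = 0.0808) and -0.12 for MA (-0.35 to 0.10) did not pass the test. Together with Gins3, Rfc3, Rfc4, Rfc5 and Fen1 it makes up the 6 genes that no comparison called.

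The acids were then compared with each other at the same dose and time, in 3 pairs. For IA against MetSA, which differ by the double bond, 6 of the 42 genes were lower and 1 higher, where 2.15% of all tested genes were lower and 3.97% higher. The lower genes were Ccne1 (-0.68), Rrm2 (-0.59), Tk1 (-0.51), Uhrf1 (-0.46), Mcm7 (-0.34) and Lig1 (-0.34), and Pcna was higher (0.26, SE 0.07, adjusted p = 0.0431). Tk1 had the smallest adjusted p (0.00871, SE 0.11), and all its IA libraries lay below its MetSA libraries. Each of these 7 calls was lost when some single library was left out, among IA 1, IA 2, IA 3, MA 3, MetSA 1, MetSA 2, MetSA 3 and M 2 (adjusted p from 0.0503 to 0.171). Tk1 was lost without IA 1 or IA 3 (adjusted p = 0.0552 and 0.0686). Rrm2 was also lost when the replicate number was added to the model. The edgeR count of lower genes was 0 without IA 1 or without IA 3 (11 and 10 at an unadjusted p under 0.05), 1 without MetSA 3, 3 without MetSA 1, and 4 without IA 2, MA 3 or M 2, and DESeq2 called 8 with all libraries. The calls over all genes were 64.8% higher with the scaling used, 54.2% with upper-quartile factors and 29.7% with library totals, and the Pcna call was lost under both of these. For the 35 genes that were not called the data do not show that the acids act alike. The 95% interval of Cdc6 ran from -0.63 to -0.02, that of Mcm5 from -0.51 to -0.09, and that of Mcm10 from -0.21 to 0.28.

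For IA against MA 7 genes were lower and 3 higher, where 16.8% of all tested genes were lower and 17.8% higher. The share of the 42 genes called lower was thus near the background, and the share called higher was below it. The lower genes were Rrm2 (-0.77, SE 0.16, adjusted p = 0.00169), E2f2 (-0.76, SE 0.09, adjusted p = 2.41e-06), Dut (-0.52), Ccne1 (-0.51), Ccne2 (-0.46), Tk1 (-0.38) and Lig1 (-0.25). The higher genes were Mcm10 (0.79), Pcna (0.50, SE 0.07, adjusted p = 2.36e-05) and Rfc2 (0.28). Rrm2, E2f2, Mcm10 and Pcna kept their calls when any 1 library was left out. The others were lost without at least 1 of IA 1, IA 2, IA 3, MA 1, MA 2 and MA 3 (adjusted p from 0.0508 to 0.174), and the count of lower genes was 2 without IA 1, 3 without IA 3 or without MA 1, and 4 without MA 3. The calls over all genes were 51.5% higher with the scaling used, 37.5% with upper-quartile factors and 25.7% with library totals.

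For MA against MetSA 5 genes were lower and 1 higher, where 14.7% of all tested genes were lower and 11.6% higher. Mcm10 (-0.76), Mcm5 (-0.34), Gmnn (-0.32), Pold1 (-0.28) and Pcna (-0.24) were lower and E2f2 was higher (0.94, SE 0.09, adjusted p = 1.80e-07). Mcm10 and E2f2 kept their calls when any 1 library was left out. Mcm5 was lost without MA 2 or MetSA 1 (adjusted p = 0.0826 and 0.0779), Pcna without the same libraries (0.143 and 0.146), Gmnn without MA 1, MA 2 or MetSA 1 (0.0675 to 0.0727) and Pold1 without MetSA 1 or any MA library (0.0561 to 0.231), and the count of lower genes was 1 without MA 2 or without MetSA 1. Pcna and Pold1 were also lost with upper-quartile factors and with library totals, and Mcm5 and Gmnn with library totals, so that 3 and 1 genes were lower under these scalings. The calls over all genes were 44.1% higher with the scaling used, 54.5% with upper-quartile factors and 61.1% with library totals.

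**Figure D4:**
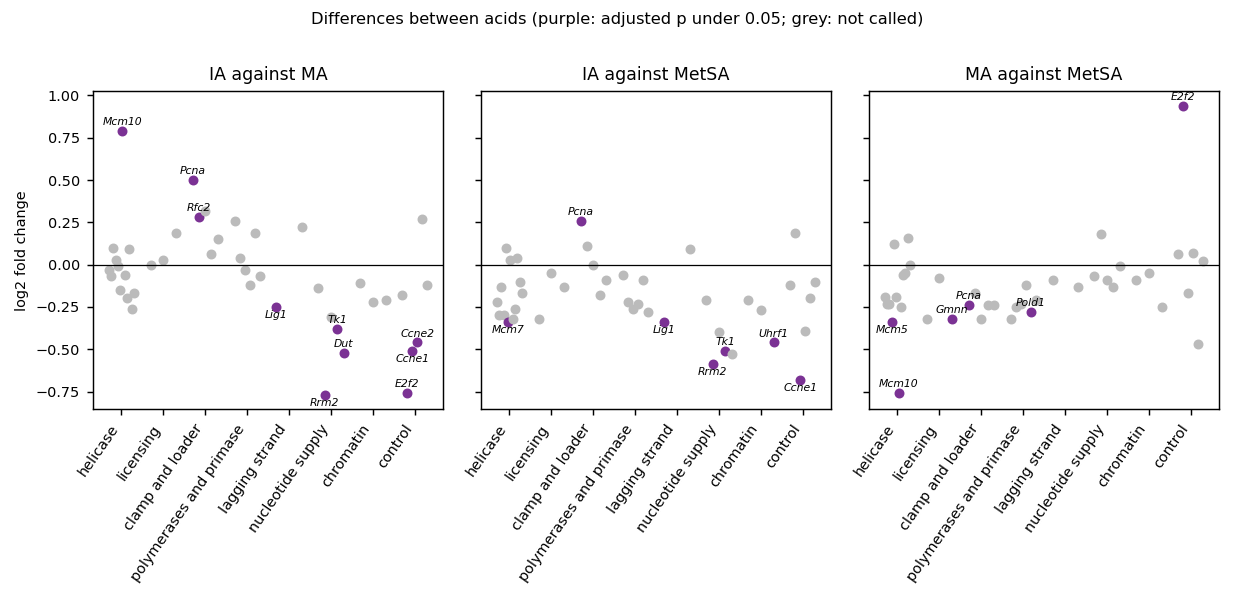
Log2 fold change (vertical axis) of the 42 genes by role (horizontal axis) for IA against MA, IA against MetSA and MA against MetSA. Purple points with names were called (10, 7 and 6 genes), and Mcm10, Rrm2 and E2f2 lie farthest from 0 for IA against MA (0.79, -0.77 and -0.76) and E2f2 and Mcm10 for MA against MetSA (0.94 and -0.76).

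The response was also set beside the promoter words. Of the 13 genes whose promoter entry holds an E2F word 8 were lower with IA, 9 with MA and 8 with MetSA, and of the 20 genes with an entry and no word 14, 15 and 12 were lower. The median log2 fold change of the genes with a word was -0.44, -0.53 and -0.35 for IA, MA and MetSA, and of those without a word -0.67, -0.56 and -0.37. Cdc6, with a word, was lower by -1.11 with IA, while Mcm6 and Rfc3, with 3 words and 2 words, were not called with IA or with MA. The difference between genes with and without a word was not tested. Some windows lie inside the gene as GENCODE M21 annotates it. Among these are the windows that hold the words of Cdc6, Mcm7, Lig1 and Uhrf1, and those of Dut and E2f1, without a word. For Lig1 and Uhrf1 another entry, nearer the annotated start of the gene, holds no word. With another pair of E2F words (CGCGAAA and GGCGGGAA, both strands) 14 of the 33 genes matched (42.4%), against 3.46% of all genes. CGCGAAA is part of the reverse complement of TTTCGCGC, so every gene with TTTCGCGC had to match again and this is no independent check.

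Of 38 further replication factors 18 were lower and 3 higher with IA, 14 lower and 2 higher with MA, and 10 lower and 2 higher with MetSA, with median log2 fold changes of -0.30, -0.20 and -0.18. Of all tested genes 17.3% were lower and 17.9% higher with IA, 10.1% and 10.1% with MA, and 8.53% and 12.6% with MetSA. These shares are the background for this list and those below. The count of lower genes among the 38 was 8 without MA 2, 9 without MA 3 and 8 without M 1 for MA, and 5 without MetSA 2 and 3 without M 1 for MetSA. Clspn, an adaptor of the replication checkpoint, was at 8.49 ± 1.29 CPM in IA, 12.6 ± 1.33 CPM in MA, 11.9 ± 0.341 CPM in MetSA and 19.5 ± 2.58 CPM in M (SD, n = 3 each), lower by -1.20, -0.63 and -0.72. The fork protein Wdhd1 was lower by -0.84, -0.70 and -0.75, and Rpa2, which coats single-stranded DNA, by -0.77, -0.62 and -0.44, the MetSA call of Rpa2 being lost without MetSA 2 or M 1 (adjusted p = 0.0533 and 0.0558). Timeless, a fork protection protein, was at 24.7 ± 1.57 CPM in IA, 9.08 ± 0.581 CPM in MA, 21.9 ± 5.18 CPM in MetSA and 18.4 ± 2.59 CPM in M. It was lower with MA (-1.02, SE 0.14, adjusted p = 5.29e-05) and higher with IA (0.43, SE 0.14, adjusted p = 0.0221), a call lost without IA 2, M 2 or M 3 (adjusted p from 0.0788 to 0.0867). Also higher were Rfc1 (0.38) and Orc4 (0.24, lost without M 1 at adjusted p = 0.0645) with IA, Pold4 (0.43) and Dna2 (0.45) with MA, and Orc4 (0.22) and Mcmbp (0.17) with MetSA, these last 2 calls being lost without MetSA 1, M 1 or M 2, that of Orc4 also without MetSA 3 and that of Mcmbp without MetSA 2 or M 3 (adjusted p from 0.0618 to 0.143).

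Among 14 further genes of nucleotide supply and removal 7 were lower and 3 higher with IA, 6 and 1 with MA, and 5 and 2 with MetSA, with a median of -0.28 in each comparison. With IA and MetSA the largest changes ran against that median. Dck, the deoxycytidine kinase of the salvage pathway, was at 460 ± 7.70 CPM in IA, 95.6 ± 4.85 CPM in MA, 330 ± 28.8 CPM in MetSA and 120 ± 4.0 CPM in M, higher by 1.94 with IA and 1.46 with MetSA and lower by -0.32 with MA. Samhd1, which breaks down deoxynucleotides, was at 1440 ± 94.6 CPM in IA, 413 ± 28.7 CPM in MA, 1160 ± 83.9 CPM in MetSA and 546 ± 52.2 CPM in M, higher by 1.40 and 1.09 with IA and MetSA and lower by -0.40 with MA. The folate enzyme gene Shmt2 was lower with each acid (-0.59 with IA), its MA call being lost without MA 1, MA 2 or M 1 (adjusted p from 0.0522 to 0.134). Mthfd1, another folate enzyme gene, was lower with IA (-0.75) and with MetSA. The pyrimidine enzyme Umps was higher with MA (0.36). Rrm2b, a reductase subunit that also serves resting cells, was higher with IA by 0.24, a call lost without IA 1, IA 3, M 1 or M 3 (adjusted p from 0.0511 to 0.149). Of 12 further chromatin genes 7, 6 and 6 were lower with IA, MA and MetSA, with medians of -0.22, -0.30 and -0.28, the MetSA count being 3 without MetSA 2. Among them were Rbbp7 (-0.47, -0.40 and -0.29) and Asf1b (-0.88, -0.47 and -0.54), a histone chaperone. Hells, a chromatin remodeller tied to DNA methylation, was lower by -0.54, -0.79 and -0.36, and the ATPase gene Atad2 by -0.59, -0.32 and -0.46. The MetSA call of Hells was lost without IA 3, MetSA 1, MetSA 2, M 1 or M 2 (adjusted p from 0.0548 to 0.177), and the MA call of Atad2 without MA 2, MA 3 or M 1 (0.0627 to 0.109). The MA call of Asf1b was lost without MA 2 or M 1 (adjusted p = 0.124 and 0.0833).

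Of 26 genes of G1 and S control 14 were lower and 2 higher with IA, 13 and 1 with MA, and 13 and 1 with MetSA, with medians of -0.31, -0.34 and -0.27. Myc, a factor that drives growth, was at 11.3 ± 0.852 CPM in IA, 17.9 ± 0.752 CPM in MA, 15.6 ± 1.14 CPM in MetSA and 28.9 ± 3.53 CPM in M, and Ccna2 (cyclin A) at 10.2 ± 1.46, 16.2 ± 1.97, 14.5 ± 0.509 and 25 ± 1.35 CPM in the same groups. Both were lower with each acid. Foxm1, a factor for genes of G2 and mitosis, was at 6.98 ± 0.784 CPM in IA, 11.4 ± 0.157 CPM in MA, 8.25 ± 1.06 CPM in MetSA and 15.8 ± 1.84 CPM in M, lower by -1.18, -0.47 and -0.94. Ccnd2 (cyclin D2) was at 136 ± 8.12 CPM in IA, 20.6 ± 1.08 CPM in MA, 82.5 ± 18.4 CPM in MetSA and 39.2 ± 0.993 CPM in M, higher with IA and MetSA (1.79 and 1.07) and lower with MA (-0.93). The pocket protein gene Rbl1 was also higher with IA (0.34), and E2f3 was higher with MA (0.25), a call lost without any MA library or without M 3 (adjusted p from 0.0603 to 0.193). Of the 7 genes of Cdk inhibitors 3 were lower and 1 higher with IA, 2 lower with MA and 1 higher with MetSA, with medians of -0.38, -0.29 and -0.23. Of all tested genes 17.9% were higher with IA and 12.6% with MetSA, so 1 of 7 is near the background. Cdkn1a was higher with IA (0.82) and MetSA (0.60), at 545 ± 8.62 CPM in IA, 269 ± 15.5 CPM in MA, 469 ± 42.8 CPM in MetSA and 309 ± 11.6 CPM in M. With MA Cdkn1a was lower by -0.20, a call lost on leaving out any 1 of 9 libraries, all but MA 3, MetSA 1 and MetSA 3 (adjusted p from 0.0521 to 0.194). Cdkn2c was lower with IA (-0.67), as was Cdkn2a (-1.81, SE 0.37), at only 0.316 ± 0.0727 CPM in IA and 1.11 ± 0.234 CPM in M. Cdkn1c was lower with MA (-0.77), a call lost without MA 1, M 2 or M 3 (adjusted p from 0.0659 to 0.130). The 20 genes of mitosis give the context: 19 were lower with IA, 9 with MA and 17 with MetSA, with medians of -1.04, -0.38 and -0.53. The MA count was 3 without MA 2 and 5 without M 1, the MetSA count was 11 without MetSA 2, and the IA count was 19 without any 1 library. Top2a, the topoisomerase that untangles sister chromosomes, was lower with each acid (-1.03, -0.40 and -0.58). Ccnb1 (cyclin B1), Cdc20 and the kinase gene Plk1 were lower with IA (-1.29, -1.73 and -1.29) and with MetSA (-0.74, -0.80 and -0.56), and were not called with MA (-0.17, -0.38 and -0.30).

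**Figure D5:**
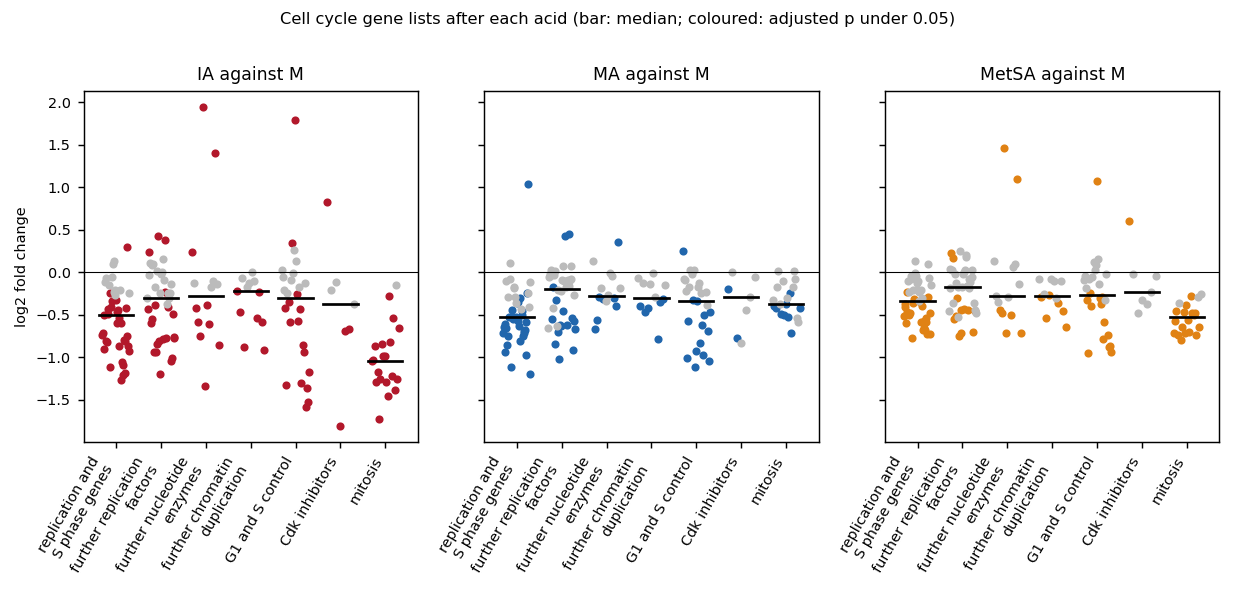
Log2 fold change against M (vertical axis) of each gene (points) on 7 lists of cell cycle genes (horizontal axis) after IA, MA and MetSA, with the median of each list (bar). Coloured points were called, and the points above 1 with IA and MetSA are Dck, Samhd1 and Ccnd2.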

How the data were processed

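Whole-number counts per gene, deposited by the authors and not normalised, were used for 12 libraries (IA, MA, MetSA and M, 3 each). The submitters' processing notes name STAR, featureCounts and mm10. Versions, annotation and strand setting are not stated in the labels used. Of counts from 1 to 9, 66.1% were even, against 50.9% of counts of 1000 or more, and since both mates of a pair may have been counted, all fits were repeated on halved counts. Group and replicate number come from the sample titles. Chi-square divided by its degrees of freedom was 9.6 to 59.7 between replicates, which is above sampling noise, and each library counted as 1 sample.

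From the counts, genes were kept by filterByExpr (14113 of 32285), library sizes were scaled by TMM, and the quasi-likelihood test of edgeR (glmQLFTest after a robust glmQLFit) was run on 1 fit of the 4 groups with 8 residual degrees of freedom. P-values were adjusted by Benjamini and Hochberg over all tested genes and called under 0.05. The 42 genes, the other lists, the markers and the rule for named genes were chosen with earlier results of these data known. By that rule, every library's value is given for the gene of smallest adjusted p in each role and comparison, for genes called against the majority and for genes called in no comparison, and up to 4 genes of smallest adjusted p are taken from each other list over the comparisons with M, together with those called against its majority. Errors after ± are SDs. Exon lengths and positions are from GENCODE M21 on GRCm38, and genes with 10% or more of their exon bases or 100-base stretches in another gene are named as uncertain. The scripts were tested on simulated counts. Alternatives were DESeq2, RLE factors, upper-quartile factors, library totals, no filter, a stricter filter, a replicate block, halved counts, fits of only the groups compared, and leaving out each library. Software was DESeq2 1.42.0, edgeR 4.0.16 and limma 3.58.1 under R 4.3.3.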

Additional observations from a re-analysis of the deposited data

How the results depend on the processing

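Over 252 results (42 genes in 6 comparisons), no called gene changed sign under any of the 21 alternatives. DESeq2 lost 1 call and gained 5, RLE factors lost 2, upper-quartile factors lost 5 and gained 12, library totals lost 7 and gained 24, no filter lost 1 and gained 13, the stricter filter gained 2, halved counts gained 2, and fits of only the groups compared lost 4 and gained 4. With library totals the median of all genes moved to -0.22 for IA against M, and that of the 42 genes to -0.69. The count of genes called higher for IA against M was 0 with upper-quartile factors and with library totals; for IA against MetSA it was 0 with these and with only the groups compared; for IA against MA it was 5 with no filter; for MA against MetSA it was 2 with library totals. The count called lower for IA against MA was 11 with upper-quartile factors and 15 with library totals; for IA against MetSA it was 11 with library totals; for MA against MetSA it was 3 with upper-quartile factors, 1 with library totals and 10 with no filter. All genes called for IA against MetSA were 864 in the fit reported, 1348 with DESeq2, 1483 with no filter and 575 with only the groups compared. The cause of these shifts was not tested.

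Leaving out 1 library gave, for genes called lower, 27 to 31 (IA against M), 23 to 31 (MA against M), 16 to 24 (MetSA against M), 2 to 8 (IA against MA), 0 to 8 (IA against MetSA) and 1 to 7 (MA against MetSA). For genes called higher it gave 0 to 1, 1 to 1, 0 to 0, 3 to 5, 0 to 1 and 1 to 1 in the same order. Medians of the 42 genes ran from -0.54 to -0.45, -0.60 to -0.43, -0.38 to -0.28, -0.12 to -0.01, -0.26 to -0.15 and -0.20 to -0.12. All genes called ran from 4071 to 5327, 2104 to 3185, 2114 to 2982, 4047 to 5215, 420 to 974 and 3036 to 3880.

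With the replicate block, 2 calls were lost (Rrm2 for MA against M and for IA against MetSA) and 10 gained; the count called lower for MA against MetSA was 8, and all genes called for IA against MetSA were 1413. Same-numbered libraries correlated at 0.012 to 0.169 in their deviations from the group means (18 pairs) and other pairs at -0.113 to 0.023 (36 pairs). All 12 libraries correlated best with one of their own number. The sample titles also use the same replicate numbers in every group. No label says what a shared number marks, so the pairing was not used for the calls reported. Fen1, with 68 counts in its lowest library, had the largest SE of the 42 genes (0.25).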
